A study of Drosophila melanogaster with 8 samples.

Results

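The genes described here are fly genes that still carried only a systematic CG number in the deposited table and whose head transcript levels kept the Bully and CantonS lines fully apart. A row was taken when its symbol was CG followed by digits, its mean over the 8 libraries was at least 1 RPKM (reads scaled to gene length and library depth), and the lowest library of one line was at least 2 times the highest library of the other line. CG3790, CG1732 and CG13646 were left out. The rule was met by 38 of the 3926 CG genes that remained at that level, or 0.968%, and the table held 15240 genes in all. Of the 38 genes, 14 were higher in Bully (0.357% of the CG genes) and 24 were lower (0.611%). Among 4552 genes with other symbols, the same rule was met by 29 (0.637%), 9 of them higher (0.198%) and 20 lower (0.439%) in Bully.

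RNA came from whole heads of Drosophila melanogaster adults that were 6 days old and had not met other flies socially. CantonS is the Canton-S laboratory strain, and Bully is a hyper-aggressive line of that background, so the comparison is of 1 line with 1 line. Flies of each line were reared at 19C or 25C, which gave Bully 19C, Bully 25C, CantonS 19C and CantonS 25C with 2 libraries each, and every sample pooled about 90 heads. Letters a and b serve only as names for the libraries of a group, and paired values are given in that order.

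A CG number is assigned to a fly gene by the genome project and says nothing of its function. Many such genes belong to families whose biochemistry is known from named relatives, and some were named after the table was made, so that a later symbol or synonym in RefSeq gives a predicted function. Several of the families met below are those of the insect's secreted defence (peptides induced through the Toll pathway, proteins related to sugar-binding recognition factors, serine proteases) and of small-molecule handling (kinase-like proteins, reductases, dehydrogenases, transporters).

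Effective library sizes, recovered from the steps between low RPKM values, were 47.6 to 117.8 M reads, with CantonS 25C a the shallowest. The log2 values of replicates correlated at 0.976 to 0.993 across genes, which are not independent replicates. CantonS 19C b stood apart by gene length. Its 1314 genes under 1000 bases lay at a median of 0.42 above their own 8-library mean on the log2 scale. This median was 0.11 in CantonS 19C a, and -0.22 and -0.04 in CantonS 25C. It was -0.16 and -0.12 in Bully 19C and -0.03 and 0.03 in Bully 25C. At 19C short genes thus lay higher in both CantonS libraries than in both Bully libraries. Markers of photoreceptors (6 genes), glia (4) and muscle (3) summed to 5731 to 9922, 258 to 327 and 131 to 171 RPKM. The photoreceptor sum was 9712 to 9922 RPKM in Bully 25C and at most 7810 RPKM elsewhere. The 3 neuronal markers that matched, of 4, summed to 33.9 RPKM in CantonS 19C b and 53.0 to 68.3 RPKM in the other libraries. All 5 midgut markers were at most 2.03 RPKM, all 4 ovary markers at most 0.45 RPKM and all 4 testis markers at most 1.94 RPKM. The highest testis value came from Mst87F, at 1.89 and 1.94 RPKM in Bully 19C and 0.0447 to 0.656 RPKM elsewhere. Of the 4 accessory gland markers, Acp95EF reached 9.10 RPKM and the other 3 were at most 0.0943 RPKM. The 9 hemocyte markers summed to 22.1 to 22.2 RPKM in CantonS 19C, 43.1 to 66.5 in CantonS 25C and 44.1 to 63.2 in Bully, so this sum did not separate the lines. The 8 fat body markers summed to 772 to 804 RPKM in Bully 19C and 318 to 440 RPKM in the other libraries. This rested on Lsp2 (366 and 398 RPKM in Bully 19C, 52.4 to 159 elsewhere) and the gene to (197 and 177, against 54.8 to 144). The marker apolpp did not set Bully 19C apart (227 and 181 RPKM, against 158 to 242), and the rest were at most 16.3 RPKM. The part of these marker levels in the line differences below was not tested. In whole heads, fewer cells of a type and less RNA per cell cannot be told apart.

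The values of the 8 libraries chose the 38 genes, so the line differences of these genes are given as a description with no test. The genes higher in Bully had line means that differed 2.53-fold to 30.3-fold (median 4.06-fold), and those lower in Bully 3.32-fold to 56.3-fold (median 4.75-fold). Most were weakly expressed: 24 of the 38 had a mean under 5 RPKM, and the median of the 38 means was 3.52 RPKM against 5.18 RPKM for all CG genes above the level limit. In 13 of the 24 genes lower in Bully every Bully library was under 1 RPKM, and in 3 of the 14 genes higher in Bully every CantonS library was. Chromosome arm 2R held 14 of the 38 (36.8%) and 19.1% of the CG genes at that level. Arm 3R held 10 (26.3%, against 25.8% of the CG genes), 3L 6 (15.8%, against 18.8%) and 2L 5 (13.2%, against 18.1%). The X held 3 (7.89%, against 17.7%) and the fourth chromosome 0 (against 0.563%). All 3 of the X-linked genes were lower in Bully, as were 24 of all 38.

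**Figure D1:**
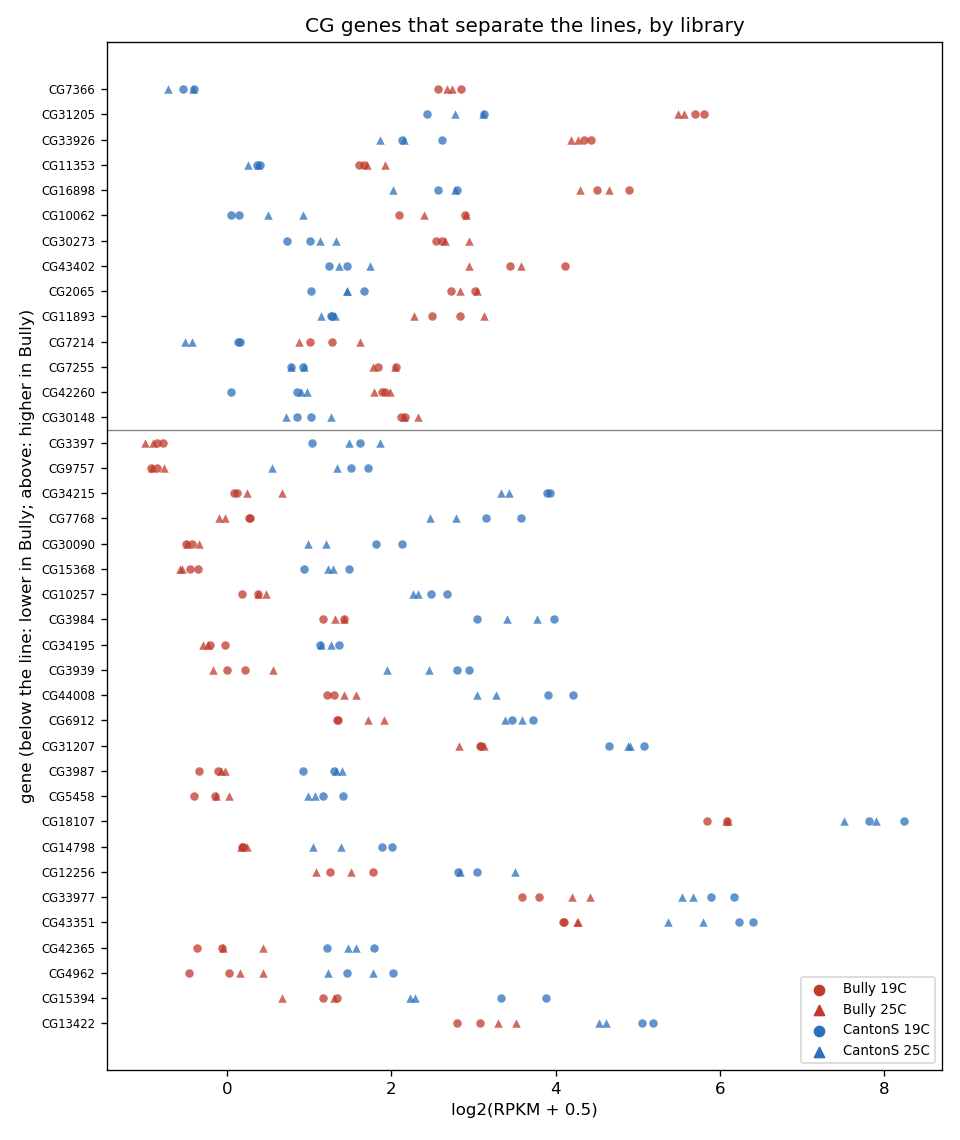
Level of each of the 38 genes in each library as log2(RPKM + 0.5), with Bully in red, CantonS in blue, circles for 19C and triangles for 25C. In every row the red and blue points form separate groups, as the choice of the genes requires. By the ratio of the nearest libraries, the gap is widest for CG7366 among the 14 genes above the line and for CG3397 among the 24 below it. On the plotted scale the gap of CG34215 is wider than that of CG3397, whose Bully libraries were at most 0.0844 RPKM.

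Among genes linked to immune defence, CG18107 had the highest level of the 38. RefSeq now names it BomS4, a Bomanin, one of the short secreted peptides that Toll signalling induces on infection. It stood at 56.8 and 67.4 (19C) and 66.8 and 67.8 RPKM (25C) in Bully, against 225 and 302 (19C) and 182 and 238 RPKM (25C) in CantonS. The lowest CantonS library was 2.69 times the highest Bully library. Part of its exon sequence (31.3%) lies opposite another Bomanin, CG15067 (BomBc2), and how strand was treated in counting is not given in the sources used here. CG15067 itself did not pass between the lines (log2 difference -0.03, SE 0.15, limma adjusted p = 0.924).

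The remaining Bomanins were not chosen by the rule and could be tested, with limma, for the line difference averaged over temperatures. Of these 11 genes 5 were lower in Bully and 0 higher, where 4.15% and 4.23% of all genes that the rule did not choose were lower and higher; with the chosen genes included, 8.79% of 8480 genes passed in either direction. The median log2 difference of the 11 was -0.81. With the gene-length trend taken out of each library, 5 were lower and 1 was higher, and without a filter on low values 3 were lower. IM23 (now BomBc1) was at 12.6 ± 2.39 RPKM in Bully and 79.4 ± 30.2 in CantonS (SD, n = 4), a log2 difference of -2.54 (SE 0.15, adjusted p = 2.58e-05). CG5791 (BomBc3) had a log2 difference of -1.65 (SE 0.13, adjusted p = 1.74e-04), IM2 (BomS2) -1.32 (SE 0.11, adjusted p = 1.87e-04), CG15065 (BomS5) -1.45 (SE 0.25, adjusted p = 0.00913) and IM3 (BomS3) -0.81 (SE 0.15, adjusted p = 0.0106). The other 6 lay between -0.82 (IM1, adjusted p = 0.0511) and 0.08 (CG43202, adjusted p = 0.748). The family list was drawn from RefSeq synonyms after the line results were known, and members of one gene cluster are not independent.

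CG13422, now GNBP-like3, is related by name to the Gram-negative binding proteins, which recognise microbial surface sugars. Its level was 6.43 and 7.96 (19C) and 9.33 and 10.9 RPKM (25C) in Bully, against 32.7 and 36.0 (19C) and 22.6 and 23.9 RPKM (25C) in CantonS. The lines came nearest at 25C, where the lowest CantonS library was 2.06 times the highest Bully library. The full-length relatives GNBP1, GNBP2 and GNBP3 did not pass between the lines (log2 differences 0.00, 0.25 and 0.18, adjusted p = 0.997, 0.192 and 0.303).

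CG33926 went the other way. It is now Srg3, named as a gene regulated by the antiviral factor STING. It was at 21.0 and 19.8 (19C) and 18.8 and 17.6 RPKM (25C) in Bully, against 3.88 and 5.62 (19C) and 3.95 and 3.14 RPKM (25C) in CantonS. All 4 Bully libraries lay within 17.6 to 21.0 RPKM, at least 3.14 times any CantonS library.

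Serine proteases and their catalytically inactive homologs act in blood clotting, melanization and Toll activation, and also in digestion. The 38 genes held 3 of them by their RefSeq synonyms. CG31205, listed as the homolog SPH227, was at 55.5 and 51.4 (19C) and 46.7 and 44.4 RPKM (25C) in Bully, against 4.89 and 8.27 (19C) and 8.19 and 6.33 RPKM (25C) in CantonS. It was the most abundant of the genes higher in Bully, with line means 7.15-fold apart.

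CG30090, now Erasp and listed as SP220, was lower in Bully, at 0.204 and 0.242 (19C) and 0.216 and 0.290 RPKM (25C) in Bully, against 3.01 and 3.87 (19C) and 1.48 and 1.81 RPKM (25C) in CantonS. These levels rested on 19 to 24 reads per Bully library and 69 to 447 reads per CantonS library. CG12256, listed as SP133, was at 1.61 to 2.93 RPKM in Bully and 6.50 to 10.8 RPKM in CantonS. An antisense RNA, CR43477, covers 85.1% of the exon bases of CG12256 and had almost the same levels, 1.74 to 3.10 RPKM in Bully and 6.97 to 11.5 RPKM in CantonS, so which of the genes gave the reads cannot be told. Of the 60 other tested genes with a numbered serine protease or homolog synonym, 7 were higher in Bully and 6 were lower, with a median log2 difference of 0.04. Among all genes that the rule did not choose, 4.23% were higher and 4.15% were lower. Genes that carry such a number but encode another kind of protein were removed from this list after the values were seen, so the counts are a description. The calls had log2 differences of -1.43 (CG8329, SE 0.24, adjusted p = 0.00803) to 0.83. The value of 0.83 belongs to CG18477 and CG31780, which have identical values in every library and count as 2 of the 7. The counts were 4 and 3 among genes with a mean of 5 RPKM or more, and without a filter on low values 3 were lower.

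Members of the EcKinase family resemble kinases that phosphorylate ecdysteroids, the insect moulting hormones. CG16898 (Dro26-1) was at 29.3 and 22.1 (19C) and 24.6 and 19.1 RPKM (25C) in Bully, against 6.48 and 5.43 (19C) and 6.36 and 3.56 RPKM (25C) in CantonS. CG11893 (Dro5-6) was at 5.15 and 6.63 (19C) and 8.25 and 4.35 RPKM (25C) in Bully, against 1.93 and 1.90 (19C) and 1.98 and 1.71 RPKM (25C) in CantonS. The spread of CG11893 between its Bully 25C libraries was wide beside its CantonS libraries. Of 34 other tested family genes, 6 were higher in Bully, among them CG5126 (log2 difference 0.80, SE 0.09, adjusted p = 0.00142), CG9497 (0.75, SE 0.10, adjusted p = 0.0026) and CG13658 (0.84, SE 0.14, adjusted p = 0.0080). The juvenile hormone-inducible gene JhI-26 was the 1 that was lower (-0.44, SE 0.10, adjusted p = 0.0341). Of all genes that the rule did not choose, 4.23% were higher and 4.15% were lower. The 6 became 3 when Bully 19C b, Bully 25C a or CantonS 25C b was left out, 10 when CantonS 19C b was left out or the gene-length trend was taken out, 3 among genes with a mean of 5 RPKM or more and 2 without a filter. The 1 became 4 when CantonS 19C a was left out and 0 when any other library except Bully 19C b was.

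**Figure D2:**
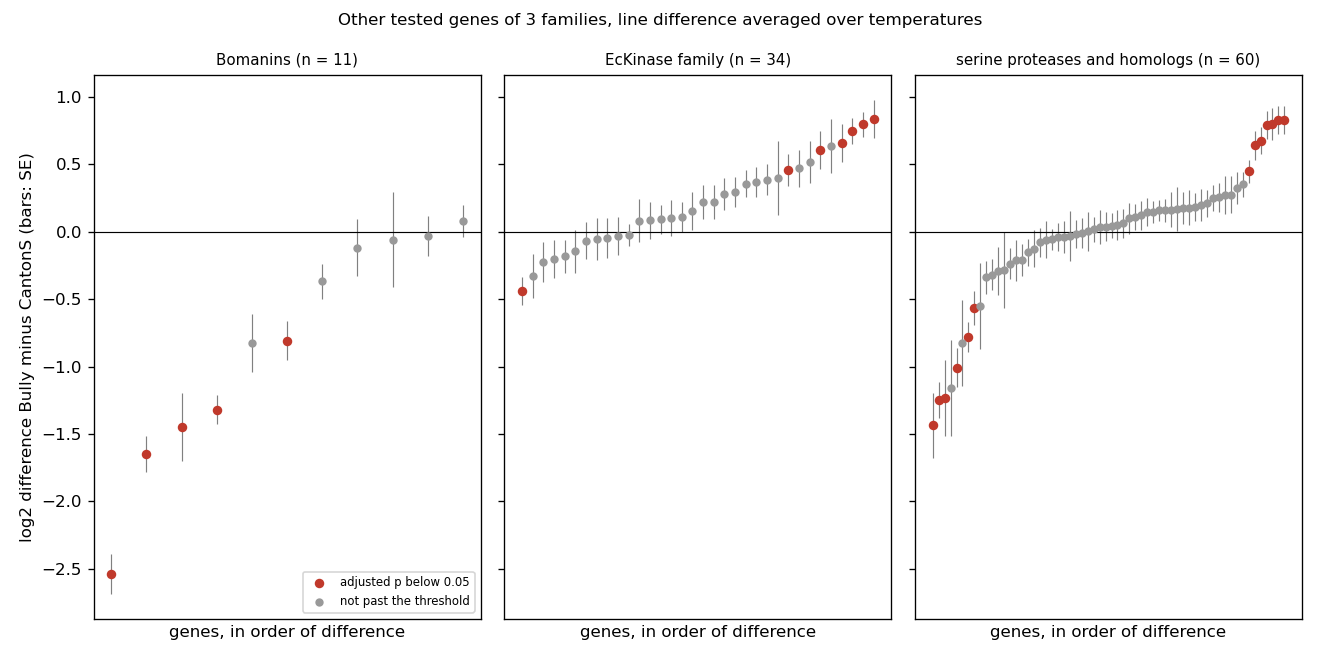
Line difference (Bully minus CantonS, log2(RPKM + 0.5) scale, averaged over temperatures, bars show SE) of the genes of 3 families that the rule did not choose, with genes past limma's adjusted p of 0.05 in red. The 5 red Bomanins all lie below 0, 6 of the 7 red EcKinase genes lie above 0, and the serine proteases have red points on both sides.

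Enzymes of small-molecule metabolism lay on both sides. CG3397, of the aldo-keto reductase family, had the widest gap of the genes lower in Bully by the ratio of the nearest libraries (18.4 times). It was at 0.0514 and 0.0844 (19C) and 0.0340 and 0 RPKM (25C) in Bully, against 2.57 and 1.55 (19C) and 2.29 and 3.15 RPKM (25C) in CantonS. The reads behind these values were 657, 433, 259 and 673 in CantonS and 14, 16, 8 and 0 in Bully. CG12224, another aldo-keto reductase, also separated the lines, by 2.67 times, but fell just under the level limit with a mean of 0.933 RPKM and is not one of the 38.

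CG2065, of the short-chain dehydrogenase family, was at 6.14 and 7.59 (19C) and 7.76 and 6.66 RPKM (25C) in Bully, against 1.54 and 2.67 (19C) and 2.25 and 2.25 RPKM (25C) in CantonS. CG7255, related to cationic amino acid transporters, was at 2.92 to 3.65 RPKM in Bully and 1.21 to 1.41 RPKM in CantonS. CG42260, whose synonym dmCNG4 places it with cyclic nucleotide-gated channels, was at 3.30 and 3.21 (19C) and 2.95 and 3.45 RPKM (25C) in Bully, against 1.30 and 0.535 (19C) and 1.36 and 1.46 RPKM (25C) in CantonS, so CantonS 19C b stood below the other CantonS libraries. An antisense RNA over 13.2% of its exon bases, CR30267, was higher in Bully too (log2 difference 1.27, SE 0.17, adjusted p = 0.00286). All 3 of these genes were higher in Bully, at folds of 2.53 to 3.23 between the line means.

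Genes with roles in modifying proteins and RNA were found among those lower in Bully. CG33977, now Dpm3, encodes the subunit that holds dolichol-phosphate mannose synthase in the membrane for glycosylation. It was at 11.6 and 13.4 (19C) and 17.9 and 20.8 RPKM (25C) in Bully, against 59.0 and 71.8 (19C) and 50.5 and 45.9 RPKM (25C) in CantonS. CG7768, a cyclophilin-type peptidyl-prolyl isomerase, was at 0.718 and 0.699 (19C) and 0.436 and 0.481 RPKM (25C) in Bully, against 8.42 and 11.4 (19C) and 6.40 and 5.03 RPKM (25C) in CantonS. The Bully libraries of CG7768 held 29 to 59 reads and the CantonS libraries 218 to 965.

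CG34195, with the synonym METTL6 (in mouse, a transfer RNA methyltransferase), was at 0.485 and 0.365 (19C) and 0.354 and 0.315 RPKM (25C) in Bully, against 1.70 and 2.08 (19C) and 1.71 and 1.91 RPKM (25C) in CantonS. Its range was narrow in both lines. CG5458, now Rsph1, is related to a radial spoke protein of motile cilia in mouse. It was at 0.255 to 0.517 RPKM in Bully and 1.49 to 2.16 RPKM in CantonS, but CG16974 covers 81.4% of its exon bases on the opposite strand at a mean of 25.8 RPKM and did not differ past the threshold (log2 difference 0.02, SE 0.10, adjusted p = 0.934). CG14798 is annotated as a pseudogene, CR14798, and was at 0.631 and 0.641 (19C) and 0.685 and 0.621 RPKM (25C) in Bully, against 3.51 and 3.20 (19C) and 1.57 and 2.11 RPKM (25C) in CantonS. The gene a6 lies opposite 25.5% of its exon bases.

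The largest set has no predicted function given here. CG7366 led the genes higher in Bully, at 6.72 and 5.42 (19C) and 6.20 and 5.90 RPKM (25C) in Bully, against 0.187 and 0.253 (19C) and 0.110 and 0.249 RPKM (25C) in CantonS. Its reads numbered 580 to 1033 in Bully and 7 to 40 in CantonS, and the nearest libraries of the lines were 21.4 times apart. CG11353 was at 2.55 and 2.67 (19C) and 3.30 and 2.76 RPKM (25C) in Bully, against 0.815 and 0.789 (19C) and 0.800 and 0.690 RPKM (25C) in CantonS. In this gene both lines varied little among their libraries.

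CG10062 was at 3.78 and 6.94 (19C) and 7.02 and 4.75 RPKM (25C) in Bully, against 0.537 and 0.603 (19C) and 1.40 and 0.916 RPKM (25C) in CantonS. CG43402 was at 16.8 and 10.4 (19C) and 11.4 and 7.19 RPKM (25C) in Bully, against 1.87 and 2.26 (19C) and 2.85 and 2.07 RPKM (25C) in CantonS. In both genes every Bully library lay above every CantonS library, as the rule requires. CG30273 was at 5.63 and 5.33 (19C) and 5.78 and 7.23 RPKM (25C) in Bully, against 1.16 and 1.51 (19C) and 2.01 and 1.69 RPKM (25C) in CantonS. All of its exon bases lie within CG30269 on the same strand, and CG30269 was higher in Bully as well (log2 difference 0.66, SE 0.12, adjusted p = 0.0122), so their reads cannot be told apart. CG7214 was at 1.33 to 2.58 RPKM in Bully and 0.201 to 0.616 RPKM in CantonS. CG30148 was at 3.98 and 3.82 (19C) and 3.96 and 4.50 RPKM (25C) in Bully, against 1.31 and 1.52 (19C) and 1.90 and 1.14 RPKM (25C) in CantonS.

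Of the uncharacterised genes lower in Bully, CG34215 was at 0.589 and 0.564 (19C) and 0.681 and 1.10 RPKM (25C) in Bully, against 14.4 and 14.8 (19C) and 10.3 and 9.58 RPKM (25C) in CantonS. CG9757 was at 0.0256 and 0.0551 (19C) and 0.0296 and 0.0871 RPKM (25C) in Bully, against 2.34 and 2.79 (19C) and 0.957 and 2.04 RPKM (25C) in CantonS. CG9757 did not reach 0.1 RPKM in any Bully library. CG15368 was at 0.232 and 0.282 (19C) and 0.186 and 0.170 RPKM (25C) in Bully, against 1.41 and 2.29 (19C) and 1.85 and 1.95 RPKM (25C) in CantonS. CG10257 was at 0.636 and 0.796 (19C) and 0.883 and 0.795 RPKM (25C) in Bully, against 5.11 and 5.89 (19C) and 4.30 and 4.50 RPKM (25C) in CantonS. CG10257 kept a narrow range in each line, and CG3939 did not, at 0.661 and 0.498 (19C) and 0.389 and 0.972 RPKM (25C) in Bully, against 6.45 and 7.20 (19C) and 3.34 and 4.99 RPKM (25C) in CantonS. Among the most abundant, CG31207 was at 6.59 to 8.23 RPKM in Bully and 24.5 to 33.2 RPKM in CantonS. CG43351 was at 16.5 and 16.7 (19C) and 18.6 and 18.8 RPKM (25C) in Bully, against 84.3 and 74.4 (19C) and 55.2 and 40.7 RPKM (25C) in CantonS. Its Bully libraries were close together and its CantonS libraries were spread, with 19C above 25C. CG44008 was at 1.83 and 1.97 (19C) and 2.17 and 2.48 RPKM (25C) in Bully, against 18.1 and 14.5 (19C) and 9.15 and 7.72 RPKM (25C) in CantonS. CG15394 was at 1.75 and 2.03 (19C) and 1.10 and 1.96 RPKM (25C) in Bully, against 9.55 and 14.2 (19C) and 4.20 and 4.37 RPKM (25C) in CantonS. In both genes the CantonS libraries of 19C were the highest. CG42365 was at 0.277 to 0.854 RPKM in Bully and 1.83 to 2.94 RPKM in CantonS, and CG4962 at 0.225 to 0.860 and 1.84 to 3.55 RPKM.

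A run of 3 genes that follow each other among the tested genes of 3R, CG6912, CG3984 and CG3987, was lower in Bully as a whole. CG3984 was at 2.18 and 1.75 (19C) and 1.99 and 2.17 RPKM (25C) in Bully, against 15.2 and 7.73 (19C) and 10.1 and 13.2 RPKM (25C) in CantonS. CG6912 was at 2.03 to 3.25 RPKM in Bully and 9.92 to 12.7 RPKM in CantonS, and CG3987 at 0.287 to 0.480 and 1.40 to 2.14 RPKM. An antisense RNA annotated as CR45600 lies opposite the whole of CG3984 and 7.01% of CG3987 and shares 1.40% of CG6912 on its own strand. The tested genes on either side of the run did not pass between the lines (CG42788, log2 difference 0.14, SE 0.10; CG6904, -0.25, SE 0.11).

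Neighbours, the nearest tested gene on each side of each of the 38 genes, were then examined where the rule had not chosen them. Genes with a mean under 1 RPKM were skipped, so a neighbour need not be the next gene on the chromosome. Of 72 such genes 17 passed the line test averaged over temperatures (23.6%), where 8.37% of all genes that the rule did not choose did. Of the 17, 13 differed in the direction of the chosen gene beside them. Leaving out the neighbours that share exon bases with the chosen gene left 63, of which 14 passed (22.2%), 10 in the same direction. No chance test was made of these shares, and nearby genes are not independent.

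Several of these pairs belong to one family. CG18547, an aldo-keto reductase beside CG3397, was at 5.20 ± 0.61 RPKM in Bully and 8.64 ± 1.63 in CantonS (SD, n = 4, log2 difference -0.67, SE 0.10, adjusted p = 0.00529). CG33460, a serine protease gene beside CG30090, was lower by -0.78 (SE 0.11, adjusted p = 0.0035), and CG13658, an EcKinase gene beside CG11893, was higher as given above. On both sides of CG44008 the neighbours were lower in Bully, CG31704 by -0.86 (SE 0.12, adjusted p = 0.00286) and CG14933 by -0.78 (SE 0.13, adjusted p = 0.00743). CG18508 beside CG3939 was lower by -1.13 (SE 0.13, adjusted p = 0.00141), and Tie, a receptor tyrosine kinase gene beside CG11353, was higher by 1.15 (SE 0.10, adjusted p = 2.52e-04). Other pairs moved apart: the cuticle protein gene Cpr57A beside CG30148 was lower in Bully (-1.79, SE 0.16, adjusted p = 3.17e-04), and Nplp3, a neuropeptide-like precursor gene beside CG4962, was higher (0.87, SE 0.17, adjusted p = 0.0173). CG7366 had CG8005 higher (0.73, SE 0.13, adjusted p = 0.00944) on one side and CG32364 lower (1.68 ± 0.39 RPKM in CantonS and 0.578 ± 0.071 in Bully, SD, n = 4, limma adjusted p = 0.00151) on the other.

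The size of the line difference was compared between rearing temperatures. Among the 24 genes lower in Bully, 19 had the larger fold at 19C, with a median of 6.08-fold at 19C and 4.18-fold at 25C. Among the 14 higher in Bully, 7 had the larger fold at 19C and 7 at 25C, with medians of 3.83-fold and 3.93-fold. These counts were not made over all genes. The log2 difference Bully minus CantonS rose from 19C to 25C by a median of 0.52 in the 24 genes and 0.005 in the 14. It also rose by a median of 0.12 in all genes tested and 0.17 in all CG genes tested. These sets were not matched on gene length. Of the 18 genes under 1000 bases, all but CG33926 are among the 24 lower in Bully. Over all genes under 1000 bases the library medians given above were 0.11 and 0.42 in CantonS 19C and -0.16 and -0.12 in Bully 19C. At 25C they were -0.22 and -0.04 in CantonS and -0.03 and 0.03 in Bully. The part of gene length in the folds and in the median of 0.52 was not tested. CG9757 differed 63.6-fold at 19C and 25.7-fold at 25C, CG34215 25.3-fold and 11.2-fold, and CG30090 15.4-fold and 6.50-fold. CG3397 went the other way, 30.4-fold at 19C and 160-fold at 25C, where the Bully mean rested on 8 and 0 reads. CG7214 differed 2.84-fold at 19C and 8.78-fold at 25C.

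**Figure D3:**
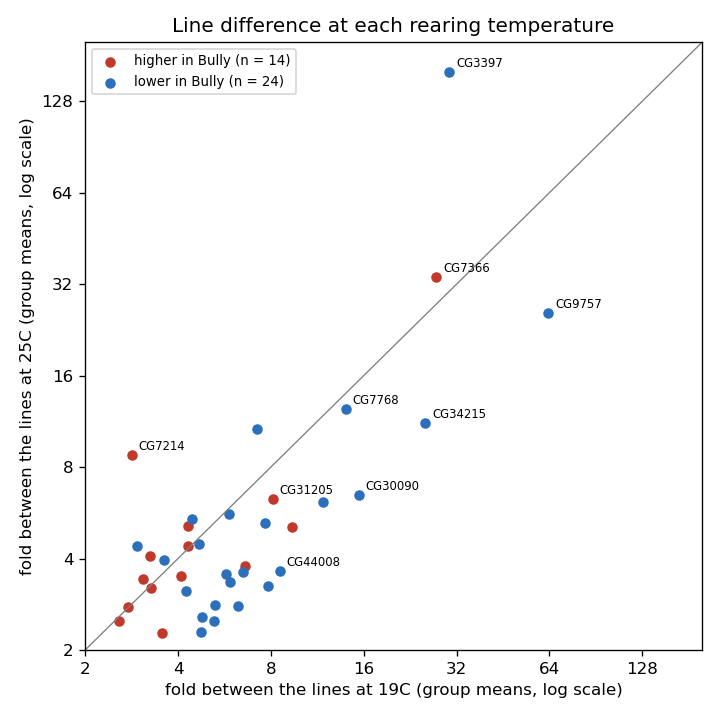
Fold between the line means (higher line over lower line) at 19C on the x axis and 25C on the y axis, both on log scales, for genes higher (red) and lower (blue) in Bully, with the diagonal marking equal folds. Of the blue points 19 of 24 lie below the diagonal, and of the red points 7 of 14, with no such count made over all genes.

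The interaction test asked whether such a change of the line difference was larger than the spread between replicates. By limma it passed for 0 of the 38 genes and for 0% of the 8480 genes tested. At an unadjusted p below 0.05 there were 10 of the 38 and 2018 of all genes. The smallest adjusted p among the 38 were those of CG44008 (1.14, SE 0.21, adjusted p = 0.0921), CG13422 (1.02, SE 0.21, adjusted p = 0.0921), CG33977 (1.04, SE 0.22, adjusted p = 0.0921), CG30090 (0.93, SE 0.22, adjusted p = 0.0968) and CG34215 (0.89, SE 0.21, adjusted p = 0.0968). In each of these 5 the log2 difference Bully minus CantonS was less negative at 25C. These 5 genes have 425 to 999 exon bases. By their medians, genes under 1000 bases lay higher in CantonS 19C than in Bully 19C, and lower in CantonS 25C than in Bully 25C. The part of gene length in these interactions was not tested. The 13 genes under 1 RPKM in every Bully library met the level limit through CantonS alone, and the pseudocount of 0.5 shrinks their Bully differences on this scale. In CG9757, for example, an interaction of 0.71 came with a CantonS difference of -0.67 and a Bully difference of 0.05, whereas in CG4962 a Bully difference of 0.52 was the larger share of an interaction of 0.76. When CantonS 19C a was left out the interaction passed for 6 of the 38 (15.8%) and for 10.6% of all genes, and when CantonS 25C b was, for 3 (7.89%) and for 466 of all 8480 genes.

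Rearing temperature itself was tested within each line, which the choice of the genes did not use directly, although a gene that varies widely within a line is less likely to meet the rule. In CantonS, 6 of the 38 genes fell at 25C (15.8%) and 0 rose, and all 6 were among the 24 lower in Bully. The rule sets those 24 genes high in CantonS relative to Bully and the other 14 low. Because the pseudocount of 0.5 shrinks differences of low genes more, these counts cannot compare the directions. For example, CG7214, higher in Bully, went from a CantonS mean of 0.606 RPKM at 19C to 0.222 RPKM at 25C. Its log2 difference was -0.61 (SE 0.23, limma adjusted p = 0.112). Of all genes tested, 6.42% passed, 5.35% lower and 1.06% higher at 25C. The median log2 difference was -0.31 in the 24 genes, -0.15 in all CG genes tested and -0.11 in all genes tested. These sets were not matched on gene length. Of the 18 chosen genes under 1000 bases, all but CG33926 are among the 24. Over all genes under 1000 bases, the library medians relative to each gene's own mean were 0.11 and 0.42 in CantonS 19C. They were -0.22 and -0.04 in CantonS 25C. The part of gene length in the median of -0.31 was not tested. The log2 difference was -1.35 in CG15394 (SE 0.23, adjusted p = 0.0375), with no CantonS 25C library above 4.37 RPKM. In CG44008 it was -0.91 (SE 0.15, adjusted p = 0.0375). The remaining calls were CG30090 (-0.87, SE 0.15, adjusted p = 0.0389), the pseudogene CG14798 (-0.73, SE 0.14, adjusted p = 0.0411), CG43351 (-0.74, SE 0.16, adjusted p = 0.045) and the cyclophilin gene CG7768 (-0.74, SE 0.17, adjusted p = 0.0452). In each of the 6 both 25C libraries lay below both 19C libraries, but so they did in 14 of the 38 genes and in 37.9% of all genes.

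The number of calls changed with single libraries and with scaling, over all genes as well. It was 0 when any 1 of the 4 Bully libraries was left out, where the 6 log2 differences were the same and limma's adjusted p was 0.0653 to 0.0954, with at most 6 of all genes passing. It was also 0 when CantonS 19C b or CantonS 25C a was left out, where 0 of all genes passed. When CantonS 19C a was left out it was 10 of the 38 (26.3%) beside 26.7% of all genes, and when CantonS 25C b was, 5 (13.2%) beside 11.3%. After median-of-ratios rescaling it was 0, with log2 differences of the 6 from -1.23 to -0.61 (limma adjusted p of 0.0573 to 0.0871). All 6 have 242 to 999 exon bases, and short genes stood high in CantonS 19C b. Under 1000 bases were 18 of the 38 genes, beside 1314 genes of known length among the 8480 tested. All of the 18 but CG33926 are lower in Bully, so direction largely went with gene length. With the length trend taken out the number was 0, and the 6 log2 differences ranged from -0.94 to -0.32 (limma adjusted p of 0.0831 to 0.409).

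In Bully 0 of the 38 genes passed for temperature, where 0.0236% of all genes did, and at an unadjusted p below 0.05 there were 4 of the 38 and 272 of all genes. The 13 genes under 1 RPKM in every Bully library had shrunken differences on the log2(RPKM + 0.5) scale, so for them a missed threshold says little about temperature. The 4 genes at the unadjusted limit were higher at 25C, among them CG33977 (0.61, SE 0.16), CG6912 (0.46, SE 0.14) and CG13422 (0.47, SE 0.15), each with an adjusted p of 1.00. The Bully 25C libraries lay above the Bully 19C libraries in 12 of the 38 (26.1% of all genes) and below them in 6 (15.6%). Averaged over the lines, temperature passed for 0 of the 38 and for 0.0825% of all genes (0.0708% lower and 0.0118% higher at 25C), with 7 of the 38 and 1009 of all genes at an unadjusted p below 0.05. When CantonS 19C a was left out, 3 of the 38 (7.89%) and 3.68% of all genes passed.

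**Figure D4:**
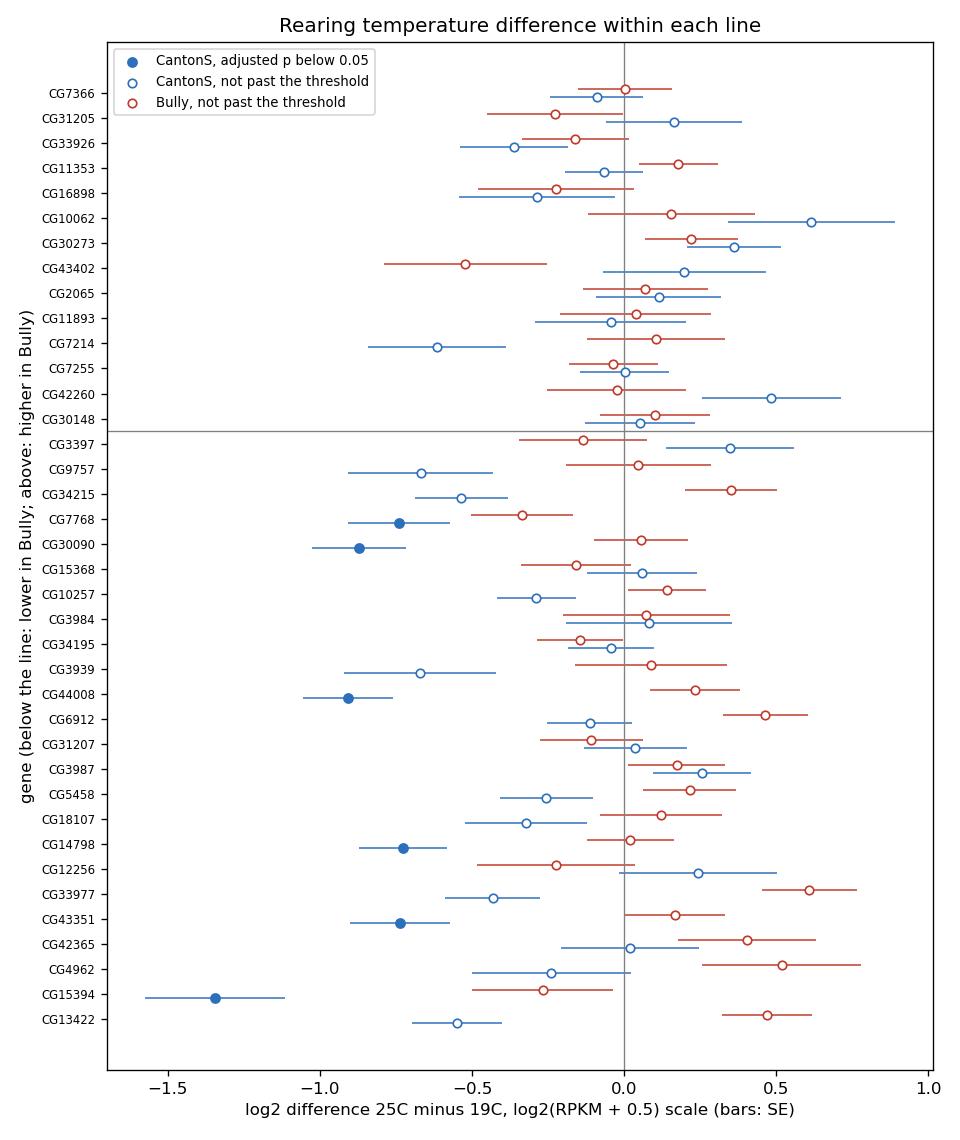
Log2 difference between 25C and 19C on the log2(RPKM + 0.5) scale for each of the 38 genes in CantonS (blue) and Bully (red), with bars for the SE and filled points for limma's adjusted p below 0.05. The 6 filled points are CantonS values between -1.35 and -0.73, all in genes lower in Bully, which the rule sets high in CantonS.

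At the edge of the rule, the genes just inside the 2-fold limit were CG30148 (nearest libraries 2.01 times apart), CG42260 (2.03) and CG13422 (2.06). Just outside was CG42808 (1.95, lower in Bully), at 9.82 and 12.0 (19C) and 13.2 and 11.4 RPKM (25C) in Bully, against 25.6 and 42.0 (19C) and 36.5 and 31.5 RPKM (25C) in CantonS. CG10924 (1.94, higher) was at 5.59 and 5.16 (19C) and 2.57 and 1.89 RPKM (25C) in Bully, against 0.974 and 0.645 (19C) and 0.488 and 0.273 RPKM (25C) in CantonS, with its 19C libraries above its 25C libraries in both lines. CG31676 (1.91, higher) was at 16.3 and 17.6 (19C) and 17.5 and 16.4 RPKM (25C) in Bully, against 4.69 and 8.54 (19C) and 6.82 and 8.03 RPKM (25C) in CantonS. At the level limit, CG9757 (mean 1.04 RPKM), CG15368 (1.05) and CG5458 (1.07) were just inside. CG34054 (0.946), CG12224 (0.933) and CG13510 (0.922) separated the lines by at least 2 times and were just outside.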

How the data were processed

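The authors deposited RPKM values per gene for 8 whole-head libraries, without read counts. Per the submitters' processing notes, TopHat2 2.0.4 and edgeR 3.8.6 were used, with genome builds dm3 and BDGP5, and read filters are not given in the sources used here. Replicates are labelled as independent biological samples. The columns carry group names but no replicate number. From the RPKM values, whole reads were recovered for 31 of the 38 genes within 0.001 of a read, and the limits of counting (3 reads of a gene of 1 kb were worth 0.0255 to 0.0631 RPKM) cover counting error only.

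The 8480 genes at 1 RPKM or more on average were fitted with limma 3.58.1 in R 4.3.3 on log2(RPKM + 0.5), with 4 group means, a variance trend and Benjamini-Hochberg adjustment over all genes at 0.05, two-sided. A fold change on this scale understates that of low genes. Current names, chromosome arms, exon lengths, overlaps and gene order came from RefSeq and Ensembl release 115 tables of a later build (dm6), so coordinates are not printed. All 38 genes matched.

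The 38 genes, the family lists and the tests were chosen with earlier results of these data known. Values in every library are given for the 10 genes of each direction with the widest gap, the 5 most abundant, those past a test and those with the smallest interaction p, and other genes were described by range. Alternatives covered the pseudocount, filters, scaling, the fit and each library left out, and the correction for gene length and all alternatives for the line test of unchosen genes were added after seeing the data.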

Additional observations from a re-analysis of the deposited data

How the results depend on the processing

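The numbers of genes chosen as higher and lower in Bully, 14 and 24, were 28 and 42 with a separation of at least 1.5 times, 4 and 12 with one of at least 3 times, and 4 and 10 with a mean of at least 5 RPKM; with a mean of at least 0.5 RPKM the number higher in Bully was 25. Rescaling by median of ratios or quantiles kept 36 of the 38. With single libraries left out the counts were 14 to 18 and 21 to 29. The count of 6 for temperature in CantonS was 0 without a filter, after median-of-ratios rescaling, after quantile normalization, with CantonS fitted alone and with the length trend removed, 3 of 14 tested with a mean of at least 5 RPKM, and 0 to 10 with single libraries left out; the cause was not tested. All 6 kept their sign in every alternative that tested them. Over all genes that count was 544 as reported and 0 to 2261 in the alternatives. With single libraries left out the counts were 0 to 6 for the interaction, 0 to 3 for the average over lines and 0 for temperature in Bully; other alternatives left these 3 at 0. Neighbours past the line test (17) numbered 11 without a filter and 11 with a mean of at least 5 RPKM, and 14 to 22 with single libraries left out. Bomanins lower in Bully (5) numbered 3 to 6. No paired analysis was possible because the columns carry group names but no replicate numbers, so the planned replicate block was not run. Low level limits what the temperature tests in Bully can show in the 13 genes under 1 RPKM in all 4 Bully libraries.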
